A study of Mus musculus with 16 samples.

Results

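Pigr encodes the polymeric immunoglobulin receptor of epithelial cells, and its RNA was followed here through 16 mice. It was taken by its symbol from the deposited tables, as 1 gene of the 22396 symbols they list. The gene (ENSMUSG00000026417) lies on chromosome 1 from 130826684 to 130852249 on the plus strand of GRCm38. The tables hold 1 of its 3 GENCODE transcripts, ENSMUST00000027675.13, a protein-coding transcript of 3849 bases in 11 exons. Of its 3752 distinct windows of 31 bases, 40 also occurred in transcripts of other genes and 82.4% were absent from the other 2 Pigr transcripts.

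The receptor sits on the basolateral face of mucosal epithelium, where it binds polymeric IgA and IgM that carry the joining chain. It is taken up with its cargo, carried across the cell in vesicles and cut at the luminal face, which releases the antibody together with the extracellular part of the receptor as secretory IgA or IgM. Epithelial cells make the receptor and plasma cells of the lamina propria make the cargo. Interferon gamma, TNF, several interleukins and bacterial products are known to raise Pigr transcription.

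Every mouse carried floxed alleles of Tnfrsf1b, the gene of TNF receptor 2 (Tnfr2-f/f), and the mice labelled knockout also carried Vil1::Cre, which deletes floxed sequence in cells where the villin promoter is active. Mice drank water or 3% dextran sulfate sodium (DSS), a salt that injures colonic epithelium, for 6 days by the labels (the study's methods give another percentage of DSS). Distal colonic EpCAM+ cells were sorted from all of the mice, on day 12 by the labels, whereas the study's figure legends give another day for the uninjured mice. The age given for mice of this model is 8 weeks. There were 4 control and 5 labelled knockout mice on water, and 3 control and 4 labelled knockout mice after DSS. Cages a (4 males) and b (5 females) held the water mice, and cages c (2 females) and d (5 females) held the DSS mice, with both genotypes in each cage. No cage held both treatments, each treatment has its own table, and the study's methods describe taking the injured parts of the colon after DSS, so treatment, cage, table and dissected region cannot be told apart and no test was made between DSS and water. Each mouse is 1 library, and the labels give about 10000000 reads per library.

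The libraries were checked for their labels and their cell types. Tnfrsf1b was at 13.9 ± 2.06 TPM in water controls (SD, n = 4) and 11.8 ± 2.30 TPM in labelled knockout mice (SD, n = 5), and at 16.5 ± 4.95 TPM (SD, n = 3) and 18.4 ± 6.02 TPM (SD, n = 4) after DSS. It was therefore not lower in the DSS libraries labelled knockout, and neither difference passed an exact two-sided permutation test (p = 0.198 in water and 0.629 after DSS). These values count the whole listed transcripts and not the deleted part alone. The epithelial identity genes (8 genes, among them Epcam, Krt8, Cdh1 and Vil1) summed to 4784 to 6610 TPM in water and 4638 to 7925 TPM after DSS. Macrophage markers also stood in the water libraries, where their 8 genes summed to 1164 to 2571 TPM against 18.1 to 62.9 TPM after DSS. On deposited TPM all 8 were lower in each DSS mouse than in any water mouse, and the share of all genes apart in this way is not given.

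To show the sequence just upstream of the gene, the 250 bases before the Pigr start were read from the RefSeq promoter table (GRCm38.p6, chr1:130826434-130826683, plus strand). Capitals mark an E-box (CACGTG), the site type that USF proteins bind.

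Pigr upstream: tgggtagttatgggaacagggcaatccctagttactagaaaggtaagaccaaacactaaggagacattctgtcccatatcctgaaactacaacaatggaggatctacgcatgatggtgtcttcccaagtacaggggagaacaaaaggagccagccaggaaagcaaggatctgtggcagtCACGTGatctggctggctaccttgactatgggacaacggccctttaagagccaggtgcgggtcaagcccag

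The E-box begins 71 bases before the start, and 6.02% of 32851 promoter windows of the same length hold 1 or more. An NF-kB pattern (GGGNNNNNCC, both strands, overlapping matches joined) was matched at 2 places in this window, as it was somewhere in 45.8% of all windows. The interferon response pattern AANNGAAA and the STAT6 pattern TTCNNNNGAA had no match in these 250 bases on either strand, against 21.3% and 5.85% of all windows with 1 or more. These are matches of letters in a short window only.

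Pigr was among the most abundant RNAs of the sorted cells in all 16 mice. In water controls 1 to 4 it was at 941, 796, 815 and 964 TPM (transcript abundance per length, relative to the whole library), a mean of 879 ± 85.5 (SD, n = 4). In labelled knockout mice 1 to 5 on water it was at 1167, 1018, 952, 793 and 1102 TPM, a mean of 1006 ± 145 (SD, n = 5). These 2 groups overlapped, with the lowest value of all in a labelled knockout mouse.

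After DSS, controls 1 to 3 held Pigr at 1152, 1359 and 1804 TPM, a mean of 1439 ± 333 (SD, n = 3). The labelled knockout mice 1 to 4 held it at 1396, 1238, 1123 and 1405 TPM, a mean of 1291 ± 135 (SD, n = 4). These groups overlapped as well, and DSS control 3 stood above all 15 other mice. In bulk libraries such as these, fewer cells that make a transcript and less RNA per cell cannot be told apart.

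Ordered by mean TPM, DSS controls came first, followed by DSS labelled knockout, water labelled knockout and water control mice. Neighbours in this order overlapped in every case. The steps of 148 TPM between the DSS groups and 127 TPM between the water groups were smaller than the larger SD of each pair (333 and 145 TPM), while the step of 284 TPM from DSS to water labelled knockout mice was larger than 145 TPM.

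**Figure D1:**
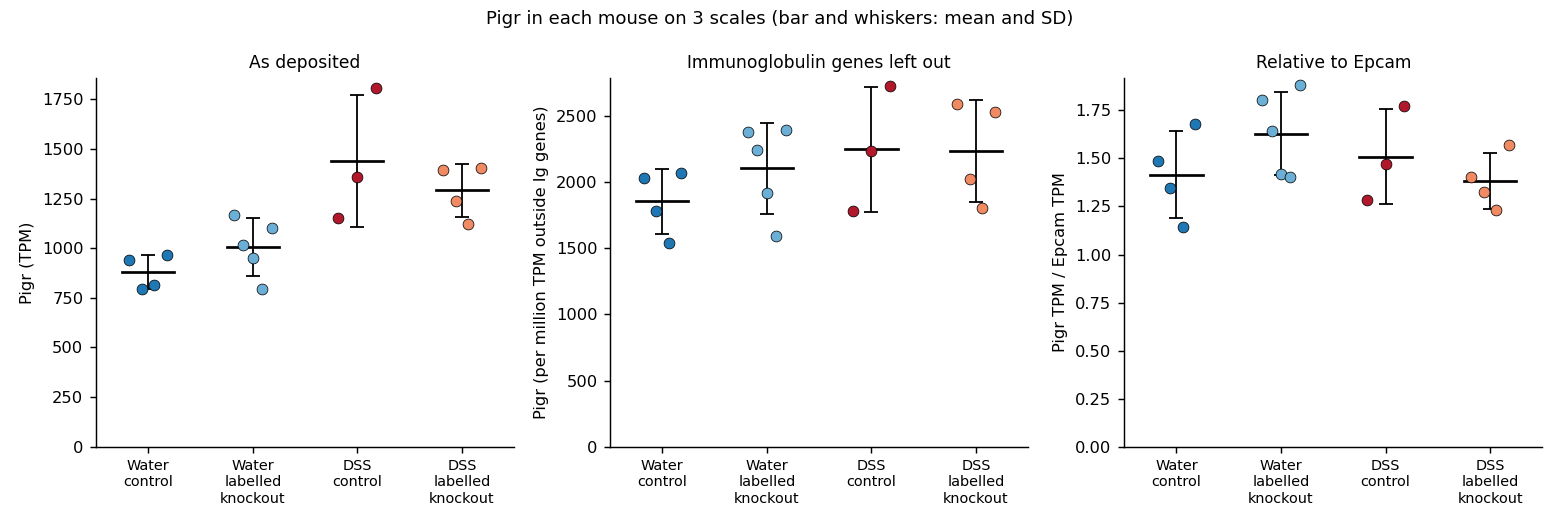
Pigr in each mouse by group as deposited TPM (left), per 1000000 TPM outside immunoglobulin genes (middle) and as a ratio to Epcam (right), with points for mice and bars and whiskers for the group mean and SD. As deposited, 5 of 7 DSS mice lay above all 9 water mice, while on the Epcam ratio no DSS mouse did.

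An error from counting alone can be set beside these differences between mice. It leaves out all other technical variation. From the authors' mean natural log of estimated counts over each table, 9.21 in water and 10.28 after DSS, Pigr rested on about 9960 and 29206 estimated counts per library. Counting alone would then give an error of about 1.00% and 0.585%, whereas the SD between mice was 14.0% of the mean in water (n = 9) and 16.9% after DSS (n = 7). By this measure Pigr was transcript 14 of 12476 in water and 11 of 13789 after DSS.

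The rank of Pigr among 22396 genes, with rank 1 the highest TPM, told DSS and water mice apart. Pigr ranked 89, 74, 70 and 79 in water controls 1 to 4 and 74, 100, 95, 116 and 64 in labelled knockout mice 1 to 5 on water. It ranked 41, 35 and 33 in DSS controls 1 to 3 and 34, 42, 49 and 29 in the DSS labelled knockout mice 1 to 4. All 7 DSS ranks were ahead of all 9 water ranks. Part of this came from immunoglobulin genes, of which 3 to 45 stood above Pigr in a water library and 0 to 2 in a DSS library. With the 262 immunoglobulin genes left out, Pigr ranked 44 to 75 in water and 29 to 47 after DSS, and 6 of 7 DSS mice were still ahead of every water mouse. In the study's late progenitor list of 50 genes, Pigr held place 3 to 6 by TPM in water and place 2 or 3 after DSS.

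The tables were normalized separately, so levels across them are given as descriptions. Ranges of genes other than Pigr are compared between treatments on deposited TPM, and the share of all genes with ranges apart is not given. The median-of-ratios factors over all 16 mice had medians of 1.18 after DSS and 0.916 in water. A separation smaller than the gap between these factors may not hold after joint rescaling. Pigr TPM after DSS was 1.43 times its level in water by the ratio of means (1354 ± 229, SD, n = 7, against 950 ± 133, SD, n = 9). The ratio was 1.64 among controls and 1.28 among labelled knockout mice. The DSS mice were all female, and on deposited TPM the 5 females on water (793 to 1102) lay below all 7 DSS mice (1123 to 1804). After joint rescaling of all 16 mice this did not hold. There the female labelled knockout 5 on water was at 1202, and the DSS mice were at 951 to 1455. On deposited TPM the 4 males on water reached 1167, in labelled knockout 1, the one water mouse above the lowest DSS mouse.

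This difference in level depended on what Pigr was measured against. Per 1000000 TPM outside immunoglobulin genes, Pigr was at 1538 to 2391 in water and 1782 to 2726 after DSS, a ratio of means of 1.12 (1.21 among controls and 1.06 among labelled knockout mice), with 3 of 7 DSS mice above all water mice. With all 16 mice rescaled together by median-of-ratios factors the ratio was 1.11, with 1 of 7 DSS mice above all water mice. On that scale the ratio was 1.27 among controls and 0.999 among labelled knockout mice.

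Set against epithelial genes the answer differed by gene. Epcam, the surface protein used for the sort, was itself 1.51 times as high after DSS on deposited TPM (894 to 1017 against 566 to 712 TPM). On that scale all 7 DSS mice were above all 9 water mice. Divided by the factor of each library over all 16 mice, the Epcam ranges overlap. Water control 3 (712 TPM, factor 0.912) then lies above DSS labelled knockout 4 (894 TPM, factor 1.17). The ratio of Pigr to Epcam does not depend on the scale of a library. The Pigr to Epcam ratio was 1.14 to 1.88 in water and 1.23 to 1.77 after DSS, and its mean after DSS was 0.937 times that in water, 1.07 times among controls and 0.849 times among labelled knockout mice. As a percentage of the 8 epithelial identity genes together, Pigr was 17.0 ± 3.06 in water (SD, n = 9) and 24.3 ± 2.99 after DSS (SD, n = 7), and 5 of 7 DSS mice were above all water mice.

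By summed deposited TPM, B cell, T cell and cycling genes did not overlap between treatments. Plasma cell, stromal, endothelial, absorptive and goblet genes did, and single genes of most lists overlapped. The gap for the cycling genes closes when each library is divided by its factor over all 16 mice. Plasma cell markers outside the immunoglobulin chains (6 genes) summed to 17.6 to 481 TPM in water and 1.23 to 21.5 TPM after DSS, with 1 of 6 lower in each DSS mouse than in any water mouse. B cell markers (7 genes) summed to 10.5 to 123 TPM in water and 1.11 to 4.05 TPM after DSS, with 1 of 7 lower in each DSS mouse. T cell markers (8 genes) summed to 5.07 to 14.7 TPM in water and 0.355 to 3.81 TPM after DSS. Of these, 1 of 8 was lower in each DSS mouse than in any water mouse, and 1 of 8 was at 0 in all DSS mice. Stromal markers (8 genes) summed to 224 to 774 TPM in water and 114 to 524 TPM after DSS, and endothelial markers (5 genes) to 3.99 to 12.4 and 5.14 to 22.6 TPM, with none of either list apart between treatments. No plasma, B cell or macrophage marker was at 0 in all DSS mice. Crypt base and cycling genes (5 genes) summed to 43.4 to 66.2 TPM in water and 85.1 to 138 TPM after DSS, and genes of absorptive cells (7 genes) to 1731 to 2656 and 893 to 1804 TPM. Goblet cell genes (8 genes) summed to 4633 to 8072 TPM in water and, apart from DSS control 3 at 9593 TPM, to 2543 to 3768 TPM after DSS, so 6 of 7 DSS mice were below every water mouse. The part of these cells in the Pigr levels was not tested.

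The genes of the receptor's cargo changed far more between mice than Pigr did. Igkc, the kappa light chain constant region, was at 2093 to 133382 TPM in water, with water control 3 lowest and labelled knockout 2 highest, and at 61.5 to 3510 TPM after DSS. Jchain, the joining chain that the receptor needs for binding, was at 465 to 13800 TPM in water and 5.18 to 441 TPM after DSS. The highest water mouse was 63.7 times the lowest for Igkc and 29.7 times for Jchain, against 1.47 times for Pigr. Jchain was above Pigr in 8 of 9 water libraries and below it in all 7 DSS libraries.

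Igha, the IgA heavy chain constant region, was listed at 7.35 to 116 TPM in water and 0 to 2.55 TPM after DSS. That row is the longer of 2 annotated Igha transcripts (2540 bases), and the 1100-base transcript is not analysed here, so the level and the immunoglobulin share cover part of the Igha RNA. Ighm, the IgM heavy chain, was at 11.0 to 54.5 TPM in water and 0 to 1.42 TPM after DSS. The lambda chains Iglc1 and Iglc3 were at 703 to 16982 and 198 to 1875 TPM in water and at 0 to 1074 and 0 to 3.14 TPM after DSS, and Iglc2 was at 0 to 381 and 0 to 1.53 TPM. The median of all 7 cargo genes was lower after DSS, and for Jchain, Igha, Ighm and Iglc3 no DSS mouse reached any water mouse on deposited TPM. The share of all listed genes apart in this way is not given. Igkc overlapped through DSS labelled knockout 3, at 3510 TPM against 2093 TPM in water control 3, and so did Iglc1, at 1074 TPM against 703 TPM in water control 2.

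**Figure D2:**
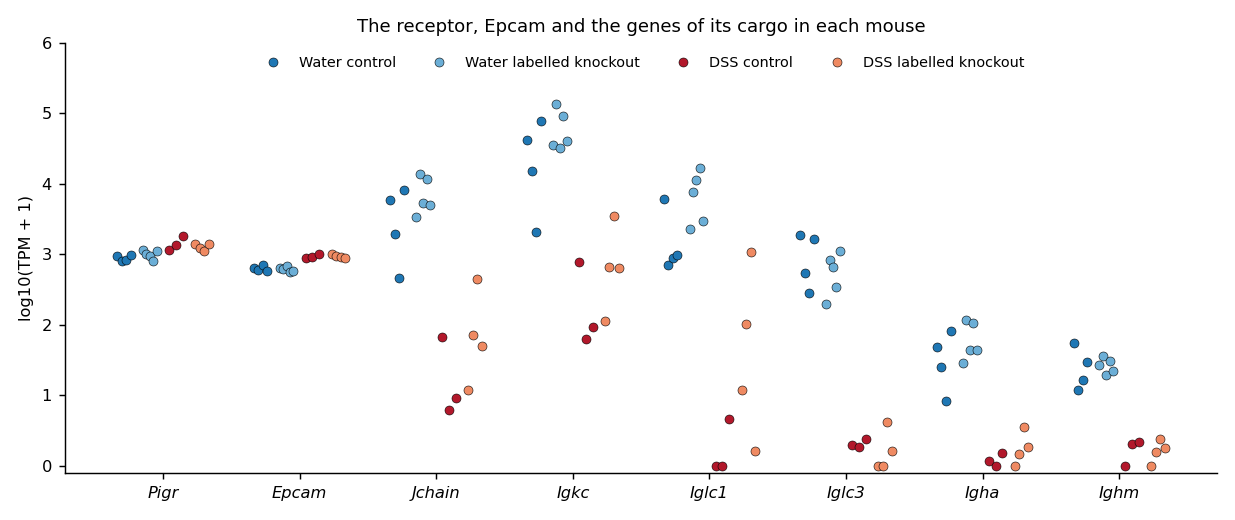
Level of Pigr, Epcam and 6 genes of the receptor's cargo in each mouse, as log10(TPM + 1), with 1 point per mouse and colours for the 4 groups. Pigr and Epcam form narrow bands in all groups, while Igkc runs from 2093 to 133382 TPM among water mice and from 61.5 to 3510 TPM among DSS mice.

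The next comparison asked whether libraries with more immunoglobulin RNA held more or less Pigr. Immunoglobulin genes made up 24.8, 8.25, 1.62 and 30.9% of the listed TPM in water controls 1 to 4 and 18.1, 47.4, 20.2, 35.4 and 21.1% in labelled knockout mice 1 to 5. The mice with the lowest and the highest share, water control 3 and labelled knockout 2, had Pigr at 815 and 1018 TPM. The share differed 29.3-fold between these mice, and Pigr differed 1.25-fold.

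Over the 9 water mice, log2 Pigr TPM and the share had Pearson's r = 0.27 (exact permutation p = 0.488) and Spearman's rho = 0.10 (exact permutation p = 0.810). With Pigr per 1000000 TPM outside immunoglobulin genes, r was 0.37 (exact permutation p = 0.333) and rho 0.30 (exact permutation p = 0.437). Without the 2 mice farthest from the median share, the first r was -0.11 (exact permutation p = 0.819, n = 7) and the second -0.24 (exact permutation p = 0.612, n = 7). The positive sign rested on those 2 mice, and no relation was resolved with 9 mice. With both measures centred within cages a and b, r was 0.28 (exact permutation p = 0.525) and 0.37 (exact permutation p = 0.402). No correlation was computed within a cage of 4 or 5 mice. Genotypes were pooled and not centred, and Pigr and the share both had higher means in the labelled knockout mice.

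After DSS the share was 0.319, 0.0260 and 0.0332% in controls 1 to 3 and 0.0592, 0.363, 2.26 and 0.316% in labelled knockout mice 1 to 4. Pigr and the share had r = -0.58 (exact permutation p = 0.155) and rho = -0.71 (exact permutation p = 0.0881) over 7 mice. Adjusted by Benjamini-Hochberg over the 3 relations computed, the p values for r were 0.488, 0.488 and 0.466. Without DSS control 2 and labelled knockout 3, the mice farthest from the median share, r was -0.77 (exact permutation p = 0.0917, n = 5). Without DSS control 3 alone, r was -0.69 with an unadjusted exact permutation p of 0.0375 (n = 6), and without DSS control 2 alone rho was -0.89 with an unadjusted exact permutation p of 0.0333 (n = 6), so each of these mice decided the side of the threshold for 1 of the 2 unadjusted p values. Centred by cage, r was -0.49 (exact permutation p = 0.154) and rho -0.54 (exact permutation p = 0.0417). Genotypes were pooled and not centred here either. The labelled knockout mice had the lower mean of Pigr and the higher mean share.

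**Figure D3:**
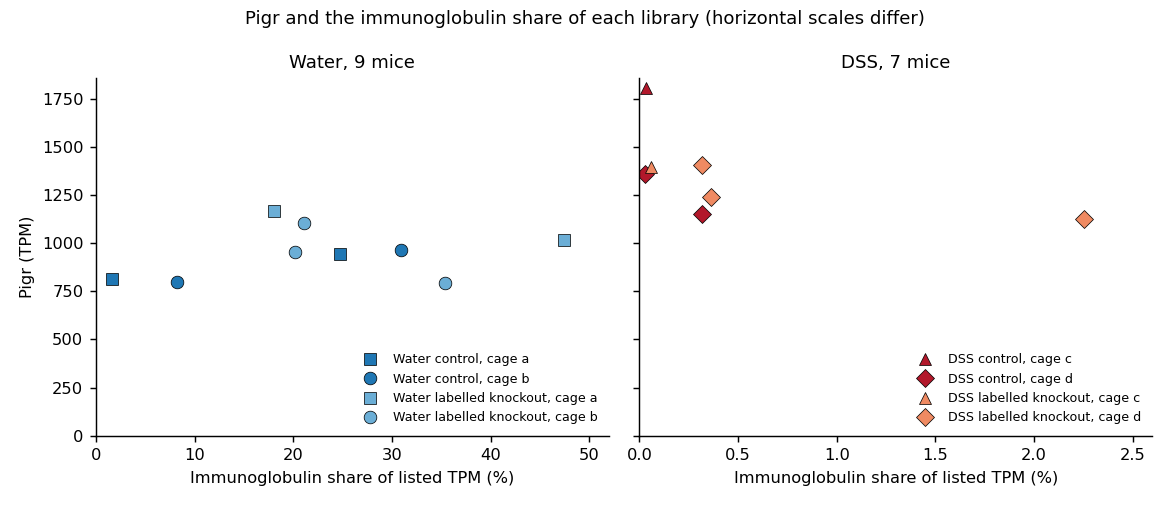
Pigr TPM (vertical axis) against the immunoglobulin share of listed TPM in percent (horizontal axis, with its own scale for each treatment), 1 point per mouse, with shapes for cages. In water the share runs from 1.62 to 47.4% while Pigr stays between 793 and 1167 TPM, and after DSS the highest Pigr value, 1804 TPM, sits at a share of 0.0332%.

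No genotype difference in Pigr larger than the spread between mice was detected in either treatment. After DSS the log2 fold change (labelled knockout minus control, on log2(TPM + 1)) was -0.14 ± 0.18 (SE), with a 95% interval of -0.55 to 0.28 and a limma adjusted p of 1.00. In water it was 0.19 ± 0.14 (SE), with an interval of -0.12 to 0.50 and a limma adjusted p of 0.865. Exact two-sided permutation tests of the TPM gave p = 0.600 after DSS and 0.175 in water, where the smallest p these group sizes allow are 0.0286 and 0.00794. Genes called at an adjusted p under 0.05 made up 0.00918% of 10899 genes tested after DSS and 0.00905% of 11046 in water, 1 gene in each, so Pigr shared the lack of a call with nearly every gene. At an unadjusted p under 0.05 there were 289 and 583 genes, and Pigr was not among them.

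The sign of the DSS estimate hung on DSS control 3. Without that mouse the log2 fold change was 0.038 (95% interval -0.29 to 0.37), against -0.14 with it. The size also moved without DSS control 1, to -0.29 (95% interval -0.71 to 0.14). DSS control 3 also had the highest sum of 8 goblet cell genes, 9593 TPM against 2543 to 3768 TPM in the other DSS mice. The goblet genes had genotype estimates of the same signs as Pigr, with 7 of 8 positive in water (median log2 fold change 0.28 against 0.00 over all genes) and 0 of 8 positive after DSS (median -0.73 against 0.02), and limma called none. Without DSS control 3, left out after seeing the data, 2 of 8 were positive after DSS and the median was -0.11. Absorptive genes had 2 of 7 positive in water (median -0.095) and 2 of 6 after DSS (median -0.24), and the epithelial identity genes 3 of 8 in each treatment (medians -0.019 and -0.046). Without DSS control 3 the epithelial identity genes had 8 of 8 positive (median 0.21), and the absorptive genes 1 of 5 (median -0.35). The part of these genes in the Pigr values was not tested. The listed TPM of the DSS libraries summed to 607488 to 662142 in controls and 539359 to 635938 in labelled knockout mice. As a percentage of that sum Pigr was at 0.225 ± 0.0474 (SD, n = 3) and 0.222 ± 0.0398 (SD, n = 4), and with each library rescaled to its listed total the log2 fold change was -0.011. Leaving out the immunoglobulin genes, which made up 0.0260 to 2.26% of the listed TPM after DSS, changed little more, with 2249 ± 472 (SD, n = 3) and 2238 ± 383 (SD, n = 4) per 1000000 TPM outside them and an exact permutation p of 1.00. In water, where listed totals were 487469 to 861109, rescaling to them with immunoglobulin kept turned the estimate from 0.19 to -0.053, and with immunoglobulin left out it was 0.18. Rescaling to the listed total with immunoglobulin kept was added after seeing the data.

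The 2 water cages, which are also the 2 sexes there, did not separate by Pigr. The males of cage a were at 985 ± 147 TPM (SD, n = 4) and the females of cage b at 921 ± 130 TPM (SD, n = 5). The difference in mean log2(TPM + 1) was 0.10 (exact two-sided permutation p = 0.460). After DSS the 2 mice of cage c were at 1396 and 1804 TPM, the latter DSS control 3, and the 5 mice of cage d at 1123 to 1405 TPM. Per 1000000 TPM outside immunoglobulin genes the DSS cages did not overlap, at 2589 and 2726 in cage c and 1782 to 2531 in cage d, and no test was made with 2 mice in a cage. With cage as a covariate the DSS genotype estimate was -0.11.

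Most cargo genes had positive genotype estimates, and none passed the test. In water 6 of 7 had a positive log2 fold change, with a median of 1.40 against 0.00 over all genes tested, and the limma adjusted p values were 0.865 or more. By mean TPM 4 of 7 were higher in labelled knockout mice, since the 2 measures differed in direction for Iglc2 (103 TPM in controls and 59.3 TPM in labelled knockout mice) and Ighm (27.5 and 26.0 TPM). Iglc1 alone had an unadjusted p under 0.05 in water (0.0207), with a log2 fold change of 2.19 ± 0.79 (SE). After DSS 4 of the 7 passed the filter of a mean of 1 TPM, 3 of them with a positive value, and the median was 2.02 against 0.02 over all genes. The immunoglobulin share itself was 16.4 ± 13.7% in water controls (SD, n = 4) and 28.4 ± 12.6% in labelled knockout mice (SD, n = 5), with an exact permutation p of 0.230.

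The genes of the machinery that carries the receptor through the cell ranged from high to near the filter of 1 TPM. Of 14 such genes, the 4 highest by the mean over all 16 mice began with Rab25, a small GTPase of apical recycling vesicles, at 103 to 175 TPM in water and 116 to 224 TPM after DSS. Mal2, a membrane protein of the transcytotic route, was at 32.8 to 45.7 and 69.4 to 132 TPM, and Ap1m2, the epithelial subunit of the AP-1 sorting adaptor, at 38.3 to 65.9 and 46.2 to 78.0 TPM. Vps35, a subunit of the retromer that retrieves proteins from endosomes, was at 26.7 to 40.1 and 34.6 to 67.3 TPM. In water alone Rab3d (a mean of 41.8 TPM) was above Mal2 (39.4) and Vps35 (34.1). Of the 4 highest, Mal2 alone had a DSS range wholly above its water range on deposited TPM. Lower in the list, Rab5a (38.0 to 69.1 against 25.4 to 35.0 TPM) and Yes1 (20.7 to 32.2 against 8.92 to 14.4 TPM) were also wholly above. So was Egfr (4.17 to 6.05 against 1.70 to 4.04 TPM), while Rab11fip5 was wholly below (0.398 to 1.32 against 3.03 to 7.67 TPM). When each library is divided by its factor over all 16 mice, the ranges of Rab5a and Egfr overlap, while those of Mal2 and Yes1 stay apart. DSS control 3 was lowest after DSS for both Mal2 (69.4 TPM, others 121 to 132) and Vps35 (34.6 TPM, others 56.4 to 67.3), and without it Vps35 did not overlap either. At the low end of the list, Rab3b had means of 1.98 TPM in water and 0.656 TPM after DSS, Rab11fip5 5.80 and 0.858 TPM, and Rab17 3.93 and 3.55 TPM. The 14 genes summed to 333 to 463 TPM in water and 526 to 585 TPM after DSS.

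None of this list passed the genotype test with limma, and none had an unadjusted p under 0.05. In water 14 were tested, 6 with a positive value, with a median log2 fold change of -0.06 against 0.00 over all genes. After DSS 12 were tested, 9 with a positive value, with a median of 0.13 against 0.02. Rab25 had 0.25 ± 0.13 (SE) in water and -0.19 ± 0.23 (SE) after DSS.

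Receptors and adaptors known to act upstream of Pigr transcription were led by Ifngr1, a chain of the interferon gamma receptor. It was at 91.7 to 105 TPM in water and 88.3 to 106 TPM after DSS, and Ifngr2, the other chain, at 23.7 to 30.3 and 33.0 to 37.8 TPM. Tnfrsf1a, the other TNF receptor, was at 25.7 to 36.2 and 22.2 to 37.4 TPM, and Myd88, the adaptor of Toll-like receptors, at 21.7 to 31.5 and 23.0 to 35.6 TPM. On deposited TPM Ifngr1, Tnfrsf1a and Myd88 overlapped between treatments, whereas each DSS mouse was above each water mouse for Ifngr2. The narrow gap for Ifngr2, from 30.3 to 33.0 TPM, closes when each library is divided by its factor over all 16 mice. That factor was 0.917 in the highest water mouse, labelled knockout 5, and 1.18 in the lowest DSS mouse, labelled knockout 3.

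Of the 12 genes in that list 10 were tested in each treatment, and limma called none. In water 3 were positive with a median log2 fold change of -0.06 against 0.00 over all genes, and none had an unadjusted p under 0.05. After DSS 8 were positive with a median of 0.12 against 0.02. There Il4ra (0.50 ± 0.20, SE) and Tlr4 (0.51 ± 0.21, SE), which were picked out after their values were seen, had 95% intervals of 0.037 to 0.96 and 0.011 to 1.00, unadjusted p values of 0.0376 and 0.0460 and limma adjusted p values of 1.00.

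Among transcription factors of the gene, Irf1 was highest, at 60.8 to 88.6 TPM in water and 57.0 to 117 TPM after DSS. Rela, a subunit of NF-kB, was at 27.8 to 57.0 and 26.4 to 52.1 TPM, Stat6, which acts after interleukin 4, at 21.7 to 26.8 and 22.5 to 31.7 TPM, and Nr3c1, the glucocorticoid receptor, at 6.18 to 13.3 and 9.84 to 22.3 TPM. All of these ranges overlapped between treatments, that of Nr3c1 through DSS control 3 alone (9.84 TPM, others 15.7 to 22.3). Usf1, a USF protein singled out after its values were seen, was at 6.04 to 21.8 and 8.80 to 21.0 TPM, and its mean in water (14.3 TPM) was above that of Nr3c1 (11.0 TPM). The 8 factors were tested in both treatments and limma called none, with none at an unadjusted p under 0.05. In water 6 were positive with a median log2 fold change of 0.17 against 0.00 over all genes, and after DSS 4 were positive with a median of 0.01 against 0.02.

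**Figure D4:**
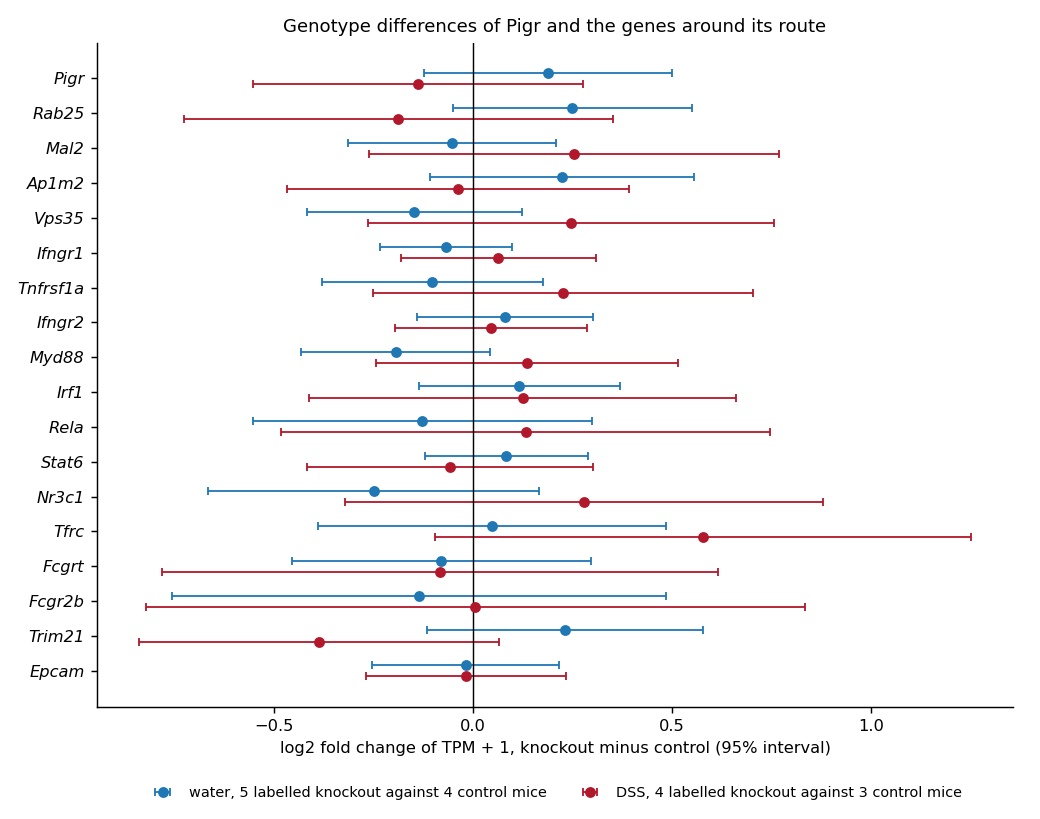
Log2 fold change of TPM + 1 (labelled knockout minus control) with its 95% interval for Pigr, Epcam and the genes named from the carrier, receptor, factor and antibody receptor lists, in water and after DSS. Every plotted interval crosses 0 (Il4ra and Tlr4, whose DSS intervals lay above 0, are not plotted), that of Pigr running from -0.12 to 0.50 in water and from -0.55 to 0.28 after DSS.

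Other receptors that bind antibody were far below Pigr. Tfrc, the transferrin receptor, which can also bind polymeric IgA, was at 40.8 to 70.5 TPM in water and 73.2 to 238 TPM after DSS. Every DSS mouse was above every water mouse on deposited TPM, by a narrow gap that was not tested after joint rescaling. Fcgrt, the neonatal Fc receptor for IgG, was at 26.2 to 48.6 and 9.72 to 21.3 TPM, with every DSS mouse below every water mouse. Fcgr2b, an inhibitory IgG receptor of immune cells, was at 6.96 to 17.0 and 0.551 to 2.06 TPM, and Trim21, a cytosolic antibody receptor, at 1.74 to 3.39 and 2.14 to 4.11 TPM. In the genotype test limma called none of the 7 listed receptors in water or of the 5 tested after DSS, with none at an unadjusted p under 0.05.

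The genes around Pigr on chromosome 1 did not share its level. Fcamr, an Fc receptor for IgA and IgM that ends 11944 bases before Pigr, was at 2.8e-06 to 3.23 TPM in water and 1.45 to 3.96 TPM after DSS. Fcmr, the IgM receptor of lymphocytes, which begins 13420 bases after Pigr, was at 0.611 to 12.8 TPM in water and 0 to 0.205 TPM after DSS, and its mean in water (2.81 TPM) was above that of Trim21 (2.53 TPM). Il10, an anti-inflammatory cytokine gene 167596 bases away, was at 9.38 to 32.8 and 0 to 1.43 TPM. Of the genes within 250 kb, Mapkapk2 had the next highest mean after Pigr, at 34.6 to 49.4 and 26.1 to 35.4 TPM. C4bp was at 0.435 to 3.08 TPM in water and 1.23 to 2.77 TPM after DSS. On deposited TPM every DSS mouse was above every water mouse for Pfkfb2 (8.47 to 10.8 against 3.19 to 7.13 TPM), Yod1 (3.01 to 5.29 against 1.25 to 2.17 TPM) and AA986860 (11.1 to 16.4 against 1.87 to 10.4 TPM). When each library is divided by its factor over all 16 mice, the ranges of Pfkfb2 and AA986860 overlap, while those of Yod1 stay apart.

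The genes whose levels ran most like Pigr were sought among 4065 genes with a mean of 10 TPM or more in both tables, by Pearson's r of log2(TPM + 1) over mice. The highest values over the 9 water mice were those of Tmem9b (0.94), St6galnac2 (0.92), Ceacam10 (0.92), Mrps34 (0.90) and Cd177 (0.90), against a median of 0.07 over all 4065 genes. Over the 7 DSS mice they were those of Ptms (0.99), Mvb12a (0.99), Tmbim1 (0.98), Yipf1 (0.98) and Prss8 (0.98), against a median of 0.28. These were different genes, and Tmem9b had r = -0.56 after DSS.

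Of the 4065 genes, 17.4% had r above 0.8 over the 7 DSS mice, 5.61% over the 6 without DSS control 3 and 1.21% over the 9 water mice. A given r is reached more readily with fewer mice, so these shares are not comparable between treatments. The genes of 1 table share library, depth and cell makeup, and these correlations are descriptions.

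By the lower of the 2 correlations, the genes most like Pigr in both tables were Ceacam10, Mrps34, Cd177, Rab15 and Creb3l4. Ceacam10, a secreted member of the CEA family, had r = 0.92 in water and 0.96 after DSS, and Cd177, a surface glycoprotein best known from neutrophils, had 0.90 and 0.92. Rab15, a small GTPase of endosomes, had 0.88 and 0.98. Without DSS control 3 these DSS values were 0.93, 0.89 and 0.94, while Mrps34 and Creb3l4 dropped to 0.65 and 0.48.

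Ceacam10 was at 86.5, 44.6, 40.4 and 76.0 TPM in water controls 1 to 4 and 120, 110, 96.7, 51.6 and 101 TPM in labelled knockout mice 1 to 5. After DSS it was at 131, 180 and 305 TPM in controls 1 to 3 and 217, 165, 147 and 237 TPM in labelled knockout mice 1 to 4. Water controls 2 and 3 and labelled knockout 4, the 3 water mice with the least Pigr, were the 3 with the least Ceacam10, and DSS control 3 had the most of both. Ceacam10 was picked for its correlation with Pigr, so this agreement restates that choice. Cd177 ran from 33.7 to 133 TPM in water and from 143 to 493 TPM after DSS, lowest in water control 3 and highest in DSS control 3. The highest water mouse was 2.96 times the lowest for Ceacam10 and 3.96 times for Cd177, against 1.47 times for Pigr.

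**Figure D5:**
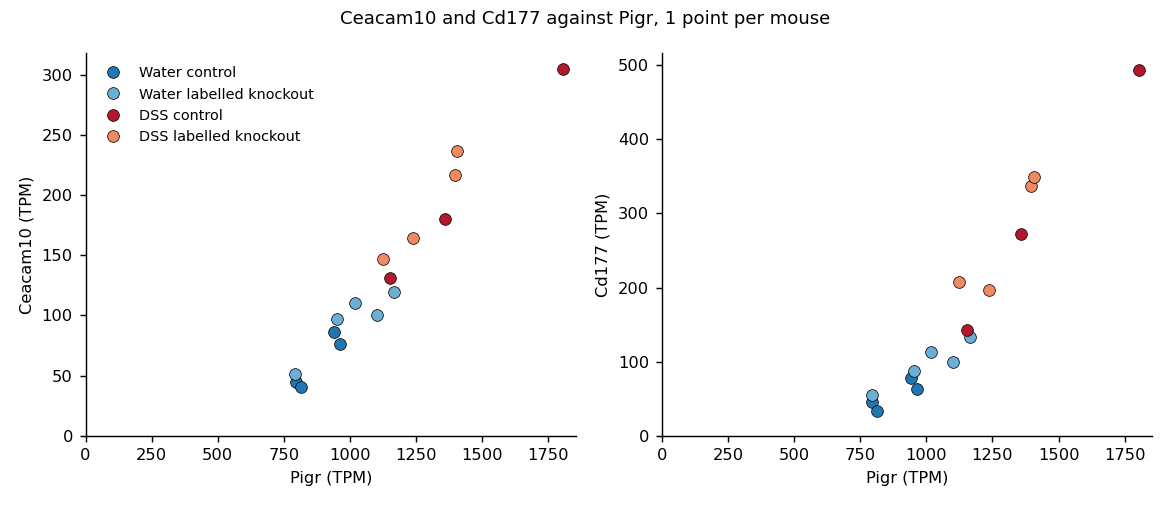
Ceacam10 (left) and Cd177 (right) in TPM against Pigr in TPM, 1 point per mouse, coloured by group. Both genes climb with Pigr within the water mice (r = 0.92 and 0.90 on the log2 scale) and within the DSS mice (0.96 and 0.92), up to DSS control 3 at 1804 TPM of Pigr.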

How the data were processed

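RNA of sorted EpCAM+ distal colonic cells from 16 mice was sequenced as stranded polyA libraries with 75-base reads. The authors deposited TPM values per transcript, made with kallisto and sleuth on mm10 per the labels, 1 table for each treatment. The tables also hold the authors' mean natural log of estimated counts, pooled over a table's mice, and the authors' test columns, which were not used. Of 29373 rows, 385 repeated a transcript and were dropped, and TPM was summed by gene symbol. The listed TPM of a library summed to 487469 to 861109. The immunoglobulin share is the percentage of listed TPM in 262 immunoglobulin chain genes, and a value per 1000000 TPM outside them divides by the remaining listed TPM. TPM leaves the depth of a single library unknown, so no counting interval per mouse was given.

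For genotype, limma 3.58.1 (R 4.3.3, with a trend) was fitted within each treatment to log2(TPM + 1) for genes with a mean of 1 TPM or more, with Benjamini-Hochberg adjustment. Fold changes on this scale understate those of low genes. The script was tested on simulated data. Relations and cages were tested by exact two-sided permutation over mice (Python 3.11.15). Named genes were Pigr, all cargo genes, the 4 highest of each other list by the mean over all 16 mice, neighbours within 250 kb with a mean of 1 TPM or more, and the 5 most alike by each of 3 measures. Some items of the lists are not reported here, and the lists were used without them. The gene and the lists were chosen with earlier results of these data known. Pseudocount, filter, rescaling, cage, replicate block and left-out mice were varied.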

Additional observations from a re-analysis of the deposited data

Results flagged for a closer look

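Within groups of 4 or 5 mice, 153 sets of values were examined for a mouse far from the others by Dixon's ratio, and 14 had one. Chance gives about 1 in 20 such sets.

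DSS labelled knockout 3 stood apart in immunoglobulin RNA, with a share of 2.26% against 0.0592 to 0.363% in the other 3 mice. The same mouse held Jchain at 441 TPM (others 11.0 to 70.5), Igkc at 3510 TPM (others 114 to 669) and Iglc1 at 1074 TPM (others 0.645 to 103). Its Pigr level, 1123 TPM, was the lowest of its group and not apart from it.

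Among water controls, mouse 1 held Iglc1 at 6057 TPM (others 703 to 962) and Fcmr at 12.8 TPM (others 0.898 to 1.55). Mouse 4 held Iglc2 at 381 TPM (others 0 to 33.2), Tnfrsf1a at 28.3 TPM (others 34.1 to 35.2), C4bp at 0.435 TPM (others 2.07 to 2.24) and Yipf1 at 34.9 TPM (others 56.3 to 59.6).

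Among water labelled knockout mice, Fcmr was at 4.50 TPM in mouse 2 (others 0.611 to 1.51), C4bp at 1.81 TPM in mouse 4 (others 2.93 to 3.08) and Ptms at 123 TPM in mouse 1 (others 61.1 to 77.3). Mapkapk2 was at 26.1 TPM in DSS labelled knockout 4 (others 29.6 to 30.2). Pigr itself stood apart in no group examined. Groups of 3, which include the DSS controls, are too small for this measure.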

How the results depend on the processing

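The genotype difference of Pigr stayed without a call in every setting. After DSS its log2 fold change was -0.18 to -0.0019 over 7 other settings (-0.0019 with immunoglobulin genes removed and the rest rescaled to its listed total, -0.011 with them kept) and -0.29 to 0.038 with each mouse left out, positive (0.038) only without DSS control 3. In water it was 0.15 to 0.20 over 6 settings, -0.053 rescaled to the listed total with immunoglobulin kept, and 0.13 to 0.27 with each mouse left out. The count of called genes after DSS was 0 with a pseudocount of 0.1, without the filter on low values and with the replicate block, and 0 to 3 with each mouse left out. In water it was 0 with a pseudocount of 0.1, 4 without the filter, 0 with the replicate block and 1 to 2 with each mouse left out. The replicate block gave Pigr a log2 fold change of -0.18 after DSS and 0.15 in water. Same-numbered mice are different animals whose deviations did not run together, so the block is not a pairing.

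The cage difference in water stayed without a call, at 0.01 to 0.18 with each mouse left out. For the relation to the immunoglobulin share, r in water was 0.06 to 0.50 with each mouse left out and -0.11 without the 2 mice farthest from the median share. Outside immunoglobulin genes it was 0.05 to 0.65 and -0.24. After DSS it was -0.69 to -0.58 with each mouse left out, the former without DSS control 3 (unadjusted exact permutation p = 0.0375). The DSS to water ratio of Pigr was 1.11 after 1 rescaling of all mice, 1.12 per 1000000 TPM outside immunoglobulin genes, 0.937 relative to Epcam and 1.43 relative to the epithelial identity genes. These 4 scales, the listed-total rescaling with immunoglobulin kept and the removal of the 2 farthest mice were chosen after seeing the data. So were the likeness, goblet, absorptive and epithelial values without DSS control 3. The cause of these shifts was not tested.

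The part of sequencing depth in the Pigr values was not tested. By the pooled estimates, Pigr rested on about 9960 counts per library in water and 29206 after DSS. Its genotype interval after DSS was -0.55 to 0.28 on the log2 scale with all mice and -0.29 to 0.37 without DSS control 3. Each value is 1 mouse and 1 library, so the p-values set differences and correlations against the spread between these libraries.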
